A study of Mus musculus with 4 samples.

Results

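The genes described here are 8 mouse genes of erythroid differentiation: Car1, Car2, Ermap, Epor, Rhd, Aqp1, Blvrb and Tspo2. They were picked by symbol from the 28692 genes listed in the files, and each symbol had exactly 1 entry, so that all 8 could be followed in every pool. The cells were hematopoietic stem and progenitor cells (HSPCs) of mouse bone marrow, sorted as negative for lineage markers and Flt3 and positive for Sca-1 and c-Kit, and sequenced with the 10x droplet method. Young mice were 2 to 3 months old and aged mice 17 to 18 months old, all C57BL/6-CD45.2 males without further treatment. The young pools Young_A and Young_B combined 2 and 3 mice, and the aged pools Old_A and Old_B combined 3 and 2 mice, so a pool and not a mouse was the replicate. Both A pools were captured at the HalioDX facility and both B pools at the TGML facility, and this difference is called platform below. The paper also describes the A and the B pools as 2 independent batches, so facility and batch cannot be told apart. The lineage depletion, the lysis of red blood cells and the Sca-1 gate remove most maturing erythroid cells, and the values therefore concern the earliest steps of the lineage.

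The youngest cells of the erythroid lineage arise from multipotent progenitors that switch on the transcription factors Gata1 and Klf1. These factors then activate genes for the erythropoietin receptor, for red cell membrane proteins and, later, for heme synthesis and globins. Of the 8 genes, Epor encodes the receptor for erythropoietin, the hormone that keeps erythroid precursors alive. Car1 and Car2 encode carbonic anhydrases, which interconvert carbon dioxide and bicarbonate. Ermap and Rhd encode membrane proteins that carry blood group antigens in humans, and Aqp1 encodes the water channel of the red cell membrane. Blvrb encodes a biliverdin reductase that also reduces flavins, and Tspo2 a translocator protein of erythroblasts that binds cholesterol.

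After barcodes further than 2 standard deviations from their pool's mean log count were dropped, 14915 of 15566 cells remained, with median counts of 5674 to 6719 UMIs per cell and totals of 16399999 to 36446168 UMIs per pool. A UMI marks a single captured RNA molecule, and levels are given as CPM, the UMIs of a gene scaled to a common total of UMIs over all genes of the same cells. Pools shared 8 to 26 barcodes in any pair, at most 0.668% of the smaller pool. Titles and source names gave the ages used here, although for Young_B and Old_A the longer description contradicts them.

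All 8 genes are protein coding. On GRCm38, Car1 lies at chr3:14766216-14808368 on the minus strand and Car2 at chr3:14886273-14900770 on the plus strand. Ermap and Rhd share chromosome 4, at chr4:119175457-119190011 on the minus strand and chr4:134864536-134896172 on the plus strand. Epor lies at chr9:21958897-21963506 on the minus strand and Aqp1 at chr6:55336432-55348555 on the plus strand. Blvrb lies at chr7:27447978-27466144 on the plus strand and Tspo2 at chr17:48447907-48451522 on the minus strand.

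Promoter windows of RefSeq on GRCm38.p6 were found for 6 of the 8 genes; Car1 and Car2 had no entry. The windows below hold the 250 bases before the RefSeq start of the gene, 5′ to 3′ on the strand of the gene. They are shown because the genes fall into groups by where they were expressed. For Ermap, Epor, Aqp1 and Tspo2 this start differs from the gene bounds given above, and the second window of Blvrb lies inside the gene. Capitals mark matches to the GATA motif, which was AGATAA or TGATAA with either A or G as its last base, or to CCNCNCCC, the CACC-type motif of Klf1, on either strand. No GATA match overlapped a CCNCNCCC match.
Ermap, chr4:119189996-119190245, minus strand: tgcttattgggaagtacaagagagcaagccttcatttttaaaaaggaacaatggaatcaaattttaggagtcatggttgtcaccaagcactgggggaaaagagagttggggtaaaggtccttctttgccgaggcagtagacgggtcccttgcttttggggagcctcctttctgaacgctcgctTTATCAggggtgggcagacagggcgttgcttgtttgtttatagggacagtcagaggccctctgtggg
Rhd, chr4:134864286-134864535, plus strand: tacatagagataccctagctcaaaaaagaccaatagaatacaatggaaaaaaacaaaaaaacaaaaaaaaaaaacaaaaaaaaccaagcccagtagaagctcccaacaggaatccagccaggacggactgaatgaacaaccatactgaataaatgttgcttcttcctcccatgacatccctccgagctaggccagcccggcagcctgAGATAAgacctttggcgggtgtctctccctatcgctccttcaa
Tspo2, chr17:48451502-48451751, minus strand: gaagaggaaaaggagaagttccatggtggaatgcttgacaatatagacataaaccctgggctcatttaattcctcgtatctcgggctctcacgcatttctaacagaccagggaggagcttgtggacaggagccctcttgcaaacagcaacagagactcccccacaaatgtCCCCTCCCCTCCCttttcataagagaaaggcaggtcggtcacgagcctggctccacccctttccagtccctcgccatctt
Epor, chr9:21963577-21963826, minus strand: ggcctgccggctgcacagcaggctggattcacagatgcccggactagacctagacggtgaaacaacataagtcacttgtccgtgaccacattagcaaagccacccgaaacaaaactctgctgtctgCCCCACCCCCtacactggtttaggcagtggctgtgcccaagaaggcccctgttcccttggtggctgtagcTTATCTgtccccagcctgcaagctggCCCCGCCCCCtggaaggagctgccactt
Aqp1, chr6:55336049-55336298, plus strand: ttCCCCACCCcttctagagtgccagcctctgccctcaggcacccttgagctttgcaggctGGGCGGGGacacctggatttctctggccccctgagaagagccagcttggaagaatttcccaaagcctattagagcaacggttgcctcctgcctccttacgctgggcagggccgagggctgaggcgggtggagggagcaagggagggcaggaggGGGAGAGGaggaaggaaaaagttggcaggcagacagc
Counted from the RefSeq start, a GATA match began 67 bases before Ermap, 54 before Epor and 43 before Rhd. Epor also held 4 CCNCNCCC matches, Aqp1 held 3 and Tspo2 held 2, whereas Ermap and Rhd held none. Of the 2 windows listed for Blvrb, chr7:27447728-27447977 held 4 CCNCNCCC matches and chr7:27452168-27452417 held 1 GATA match. Of all 32851 promoter windows of this length, 26.5% held a GATA match, 45.9% a CCNCNCCC match and 8.19% both. A match describes the letters of the window and is not evidence of binding.

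Cells were clustered with the 8 genes left out, so that they could not shape the clusters. A cluster of 461 cells carried the markers chosen for erythroid-primed cells, among them Klf1, Gata1, Mfsd2b, Slc38a5, Icam4 and Samd14, and is called pEr-like. It took up 4.24% and 3.30% of cells in Young_A and Young_B and 3.25% and 1.42% in Old_A and Old_B. The aged shares lay below the young ones without overlap, but Old_A and Young_B were nearly equal, and 2 pools against 2 allow no exact permutation p under 0.33. Klf1 was measured at 249.5 CPM in the pEr-like cells and at 4.06 CPM in the other 14454 cells, and Gata1 at 154 and 9.13 CPM. All comparisons of this cluster with other cells are descriptions without a test, because the genes of the same cells defined it.

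The 8 genes differed widely in how far they were restricted to the pEr-like cells. Over all pools together, most UMIs of Car1, Ermap, Tspo2 and Rhd lay in these cells, and the 4 are called restricted below. Aqp1, Epor and Blvrb were enriched there but also found elsewhere, and Car2 was expressed throughout the HSPCs. Of the UMIs of each gene in kept cells, the pEr-like cells held 86.1% for Ermap, 84.4% for Tspo2, 82.2% for Car1, 75.5% for Rhd, 43.7% for Aqp1, 23.3% for Epor, 15.4% for Blvrb and 3.80% for Car2. By pool, the share ran from 64.4% in Old_A to 88.9% in Young_B for Rhd and from 73.5% in Old_A to 94.95% in Young_B for Car1. For Aqp1 it was 59.4% and 59.3% in Young_A and Young_B but 39.5% and 17.9% in Old_A and Old_B. In the same order it was 39.9%, 31.0%, 22.0% and 5.47% for Epor and 24.0%, 22.85%, 14.5% and 5.55% for Blvrb. These cells were 3.09% of all cells.

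**Figure D1:**
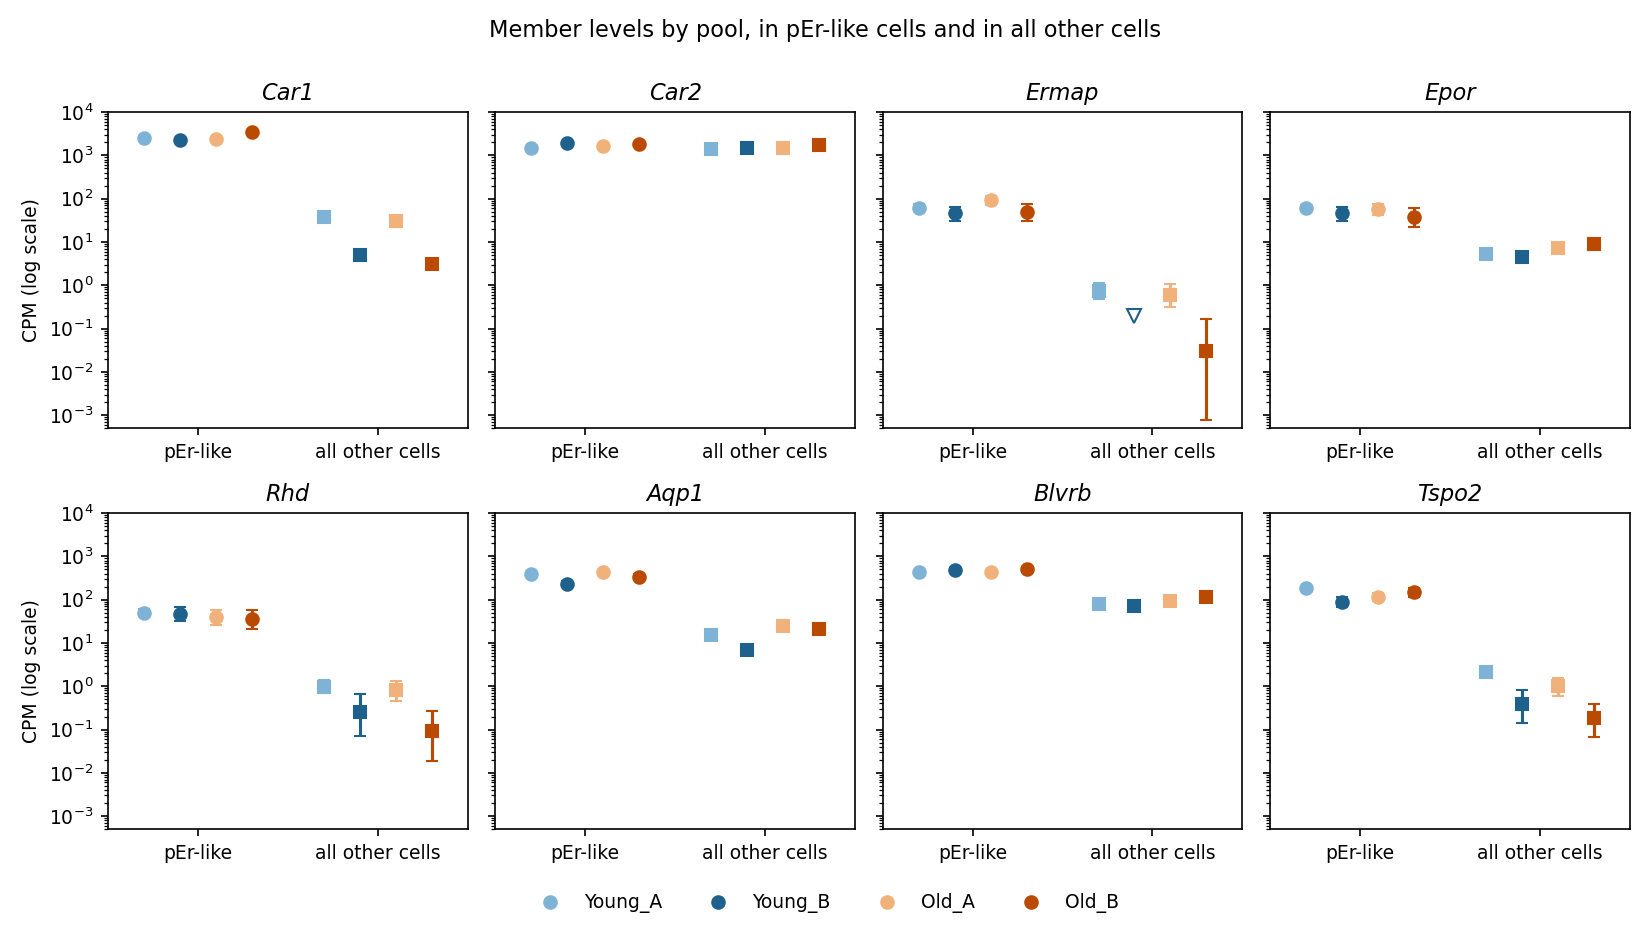
Level of each member (CPM, log scale) in pEr-like cells (circles) and in all other cells (squares) of each pool, with exact 95% Poisson intervals that cover counting error only; the open triangle marks a count of 0, drawn at the level that 3 UMIs would give. Outside the pEr-like cells Car1 was at 37.4 and 31.1 CPM in the A pools but 5.09 and 3.14 CPM in the B pools, whereas Car2 lay above 1000 CPM in every group of cells.

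Car1 was the member with the highest level in pEr-like cells, at 2473 and 2218 CPM in Young_A and Young_B and 2344 and 3529 CPM in Old_A and Old_B. In all other cells it was at 37.4, 5.09, 31.1 and 3.14 CPM in the same order. The age groups overlapped in both classes, and the level outside followed the platform and not the age, with both A pools high and both B pools low. Over all pools the pEr-like level was 124-fold that of the other cells. Within the cluster, Car1 still varied from cell to cell, as 13.7% of pEr-like cells had no Car1 UMI and the quartiles of the level per cell were 441 and 3685 CPM.

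Car2, the second carbonic anhydrase and a neighbour of Car1 on chromosome 3, had no such restriction. Its levels were 1480, 1942, 1632 and 1804 CPM in pEr-like cells of Young_A, Young_B, Old_A and Old_B, and 1393, 1496, 1487 and 1712 CPM in the other cells. The 2 classes of cells thus had nearly equal levels, with a ratio of 1.06 over all pools. Car2 UMIs were present in 97.7% of the cells outside the cluster.

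The membrane genes Ermap and Rhd were rare. Ermap was at 62.2, 45.7, 91.0 and 49.4 CPM in pEr-like cells of Young_A, Young_B, Old_A and Old_B, and at 0.754, 0, 0.598 and 0.0305 CPM elsewhere. The count of 0 came from 2170 cells of Young_B, which allows a share of cells with a UMI of up to 0.138%. Rhd was at 50.4, 47.2, 39.4 and 35.9 CPM in pEr-like cells and at 0.986, 0.254, 0.798 and 0.0914 CPM elsewhere. Both genes were thus higher in A than in B pools outside the cluster, as Car1 was. Even in pEr-like cells, 71.4% of cells held no Ermap UMI and 83.5% no Rhd UMI at this depth.

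Tspo2 had the same pattern at a higher level. It was at 183, 87.0, 118 and 148 CPM in pEr-like cells of Young_A, Young_B, Old_A and Old_B, and at 2.15, 0.382, 0.997 and 0.183 CPM in the other cells. The age groups overlapped in both classes. No Tspo2 UMI was seen in 46.2% of pEr-like cells.

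Aqp1 was at 395, 230.0, 435 and 329.8 CPM in pEr-like cells of Young_A, Young_B, Old_A and Old_B, and at 15.4, 6.81, 24.4 and 20.5 CPM outside. In the other cells both aged pools lay above both young pools. A lack of overlap there, in either direction, held for 31.7% of all genes. The receptor gene Epor was at 61.1, 45.7, 57.0 and 38.1 CPM in pEr-like cells and at 5.25, 4.39, 7.43 and 8.95 CPM outside, again with both aged pools higher in the other cells. Epor UMIs were seen in 32.1% of pEr-like cells.

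Blvrb was at 428, 493, 428 and 498 CPM in pEr-like cells and at 77.3, 71.8, 92.9 and 115 CPM in the other cells, in the order Young_A, Young_B, Old_A, Old_B. The aged pools were higher only outside the cluster, where the groups did not overlap, as for 31.7% of all genes in either direction. Over all pools its level in pEr-like cells was 4.90-fold that of the other cells, against 8.17-fold for Epor and 21.0-fold for Aqp1.

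**Figure D2:**
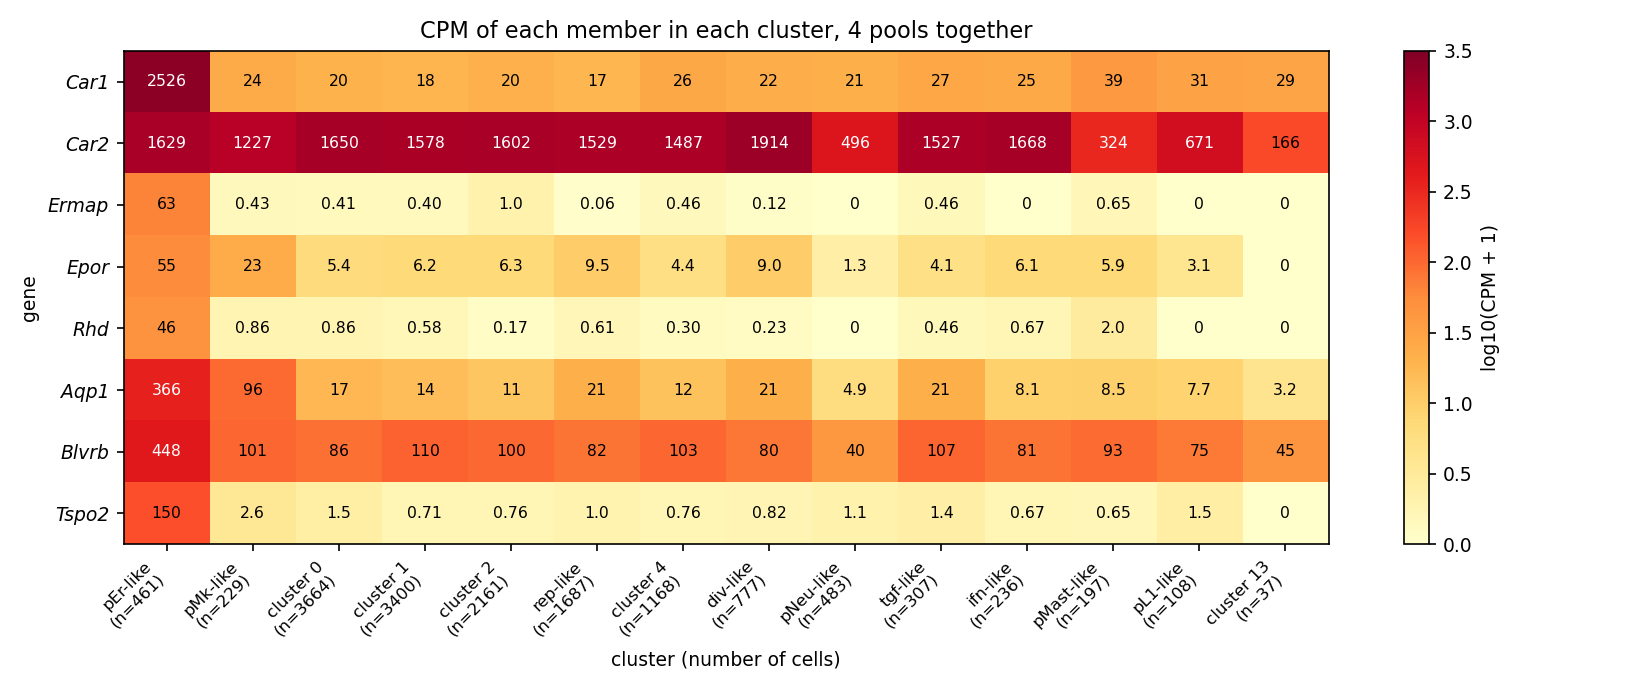
Level of each member as log10(CPM + 1) in each of the 14 clusters, all pools summed, with the number of cells of each cluster. Car1, Ermap, Rhd and Tspo2 are highest in the pEr-like column, Aqp1 and Epor have a second, lower maximum in the pMk-like cluster, and Car2 is low in the pNeu-like, pMast-like and pL1-like clusters and in cluster 13.

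The clusters of 2 other lineages framed the levels outside the pEr-like cells. The pMk-like cluster (229 cells) carried 8 of 9 markers of megakaryocyte-primed cells, and the pNeu-like cluster (483 cells) carried 6 of 7 markers of neutrophil-primed cells, in which erythroid genes should be low. Median counts were 9831 UMIs per cell in the pMk-like and 8438 in the pNeu-like cluster, against 6171 in all cells outside the pEr-like cluster. Shares of cells with a UMI were therefore also taken after each cell had been thinned to 3000 UMIs.

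Aqp1 was second highest in the pMk-like cells in all 4 pools, at 95.5 and 64.5 CPM in Young_A and Young_B and at 108 and 108 CPM in Old_A and Old_B. In pNeu-like cells the water channel gene was at 4.93 CPM over all pools, and in the next cluster after the pMk-like one it was at 21.3 CPM. Aqp1 UMIs were present in 58.1% of pMk-like cells and 3.52% of pNeu-like cells, or 24.6% (exact binomial 95% interval 19.1 to 30.7) and 1.04% (0.338 to 2.41) after thinning. Over the cells of all pools together, the intervals of the 2 clusters did not overlap. In Young_B alone, with 32 pMk-like cells, they did, at 9.68% (2.04 to 25.75) and 0% (0 to 3.45).

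Epor followed Aqp1. It was at 22.5 and 14.0 CPM in pMk-like cells of Young_A and Young_B and at 29.1 and 24.4 CPM in those of Old_A and Old_B, the highest level outside the pEr-like cells in each pool. Its level was 1.34 CPM in pNeu-like cells, and 21.0% of pMk-like cells held an Epor UMI against 1.24% of pNeu-like cells. Of the restricted genes, pMk-like cells had 24.5 CPM of Car1, 0.859 CPM of Rhd and 0.429 CPM of Ermap, against 20.3, 0.553 and 0.378 CPM in all cells outside the pEr-like cluster. Tspo2 was at 2.58 CPM in them, its highest level in any cluster outside, against 1.03 CPM. All 6 of these Tspo2 UMIs came from Young_A, and no pMk-like cell held one after thinning. Gata1 and 3 further erythroid-primed markers (Mfsd2b, Icam4 and Samd14) also marked the pMk-like cluster.

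**Figure D3:**
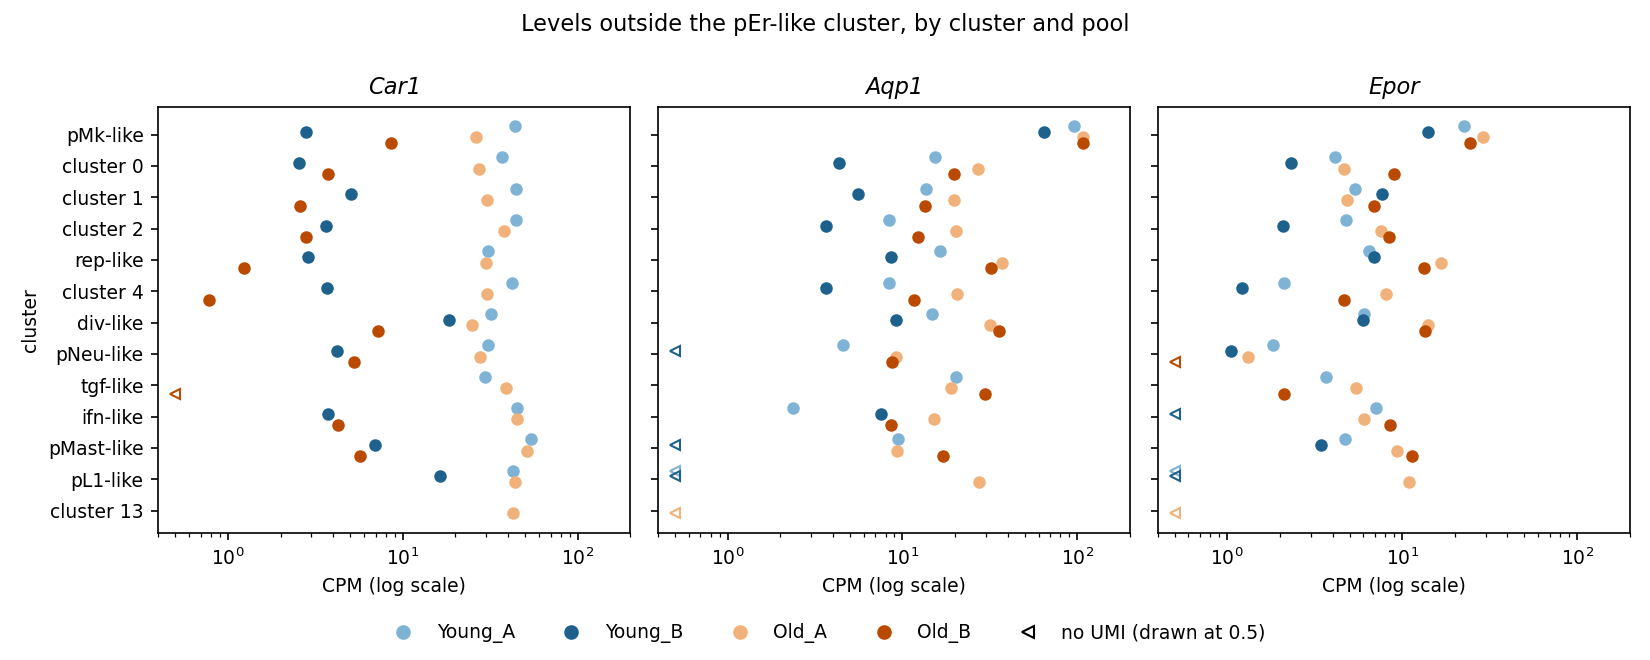
Levels of Car1, Aqp1 and Epor in each cluster outside the pEr-like cells (CPM, log scale), with a point (an open triangle where no UMI was found) for each pool that had at least 20 cells in the cluster. Car1 points sort by platform in every cluster with points of both platforms, between 25 and 54.1 CPM in the A pools, and Aqp1 and Epor peak in the pMk-like cluster in every pool.

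Low-level Car1 was spread over all clusters outside the pEr-like cells. Among clusters with at least 20 cells of the pool, it ranged from 29.3 to 54.1 CPM in Young_A and from 25 to 51.2 CPM in Old_A, but from 2.57 to 18.5 CPM in Young_B and from 0 to 8.60 CPM in Old_B. Car1 UMIs were present in 12.5% of the cells outside the pEr-like cluster and in 17.2% of the pNeu-like cells, or 6.38% and 8.11% after thinning. By pool, the thinned share was 11.1% and 1.37% of the other cells in Young_A and Young_B and 9.45% and 0.978% in Old_A and Old_B, against 10.6%, 1.905%, 13.8% and 0% of the pNeu-like cells. It was thus above the pNeu-like share in Young_A and Old_B and below it in the other pools, and in each pool it lay within the exact 95% interval of the pNeu-like share, which reached 6.72% for the 0 of 53 cells of Old_B. A share within the interval of a cell type that should lack the gene was not taken as expression, and the source of these UMIs was not tested. Of the cells outside with Car1, 88.7% held a single UMI. Only 5 cells held 5 or more, and 1 of these, with 24 UMIs, supplied 30.0% of the Car1 UMIs outside the cluster in Young_B.

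Tspo2 UMIs were present in 0.678% of the other cells and 1.04% of the pNeu-like cells, or in 0.246% and 0% after thinning, where the exact 95% interval of the pNeu-like share reached 0.764%. Ermap was present in 0.263% and Rhd in 0.394% of the other cells, whereas none of the 483 pNeu-like cells held either, which allows a share of up to 0.621%. Shares of these 3 genes outside the pEr-like cells were thus not distinguishable at this depth from those in pNeu-like cells. In Young_A the level outside was 1.51% of the pEr-like level for Car1, 1.17% for Tspo2, 1.21% for Ermap and 1.96% for Rhd, and in Old_A it was 1.33%, 0.844%, 0.658% and 2.03%. In Young_B it was 0.229%, 0.439%, 0% and 0.539%, and in Old_B 0.0889%, 0.123%, 0.0617% and 0.255%. All 4 genes were thus higher outside in both A pools than in both B pools.

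Aqp1, Epor, Blvrb and Car2 did not follow that platform pattern. As shares of the pEr-like level, Aqp1 outside was 3.89%, 2.96%, 5.62% and 6.21% in Young_A, Young_B, Old_A and Old_B, Epor was 8.59%, 9.60%, 13.0% and 23.5%, and Blvrb was 18.0%, 14.6%, 21.7% and 23.1%. These shares were higher in both aged pools for each of the 3 genes, but how often this held among all genes was not counted. In Old_B the pEr-like level of Epor rests on only 17 UMIs. After thinning, 4.69% of the other cells held an Aqp1 UMI, 1.74% an Epor UMI and 23.8% a Blvrb UMI. The pNeu-like shares were 1.04%, 0.208% and 9.98%, with exact intervals that reached 2.41%, 1.15% and 13.0%. Compared by pool, as Car1 was, Aqp1 lay above the pNeu-like interval only in Old_A (6.73%, upper limit 4.15%). Epor did so only in Young_A (1.61%, upper limit 1.55%). Blvrb did so in every pool but Young_B (18.9%, upper limit 19.1%). In the pools within the interval, these shares were thus no better set apart from pNeu-like cells than that of Car1. Car2 was lowest in cluster 13 at 166 CPM, followed by pMast-like cells at 324 CPM, pNeu-like cells at 496 CPM and pL1-like cells at 671 CPM, and was highest in dividing (div-like) cells at 1914 CPM. The pL1-like cluster carries lymphoid and the pMast-like cluster mast cell markers. Cluster 13, of 37 cells, carried 5 lymphoid and 4 late erythroid markers. It was left unnamed, since its 10 leading genes held 3 globins and only 1 marker of the lymphoid list, Jchain. The other leading genes, which were on no list, were the immunoglobulin genes Ighm, Igkc, Ighg2b, Iglc2 and Ighg2c, and Mzb1. Globin UMIs came from few of its cells, with Hbb-bs in 10.8% of them.

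The members were found together more often in single pEr-like cells than in other cells. A pEr-like cell held UMIs of a median of 5 of the 8 genes, and 88.9% held at least 3, or 74.95% after thinning. Outside, the median was 2 genes, and 13.4% of cells held at least 3, or 3.38% after thinning. Of the 287 cells outside with 4 or more members, 42 were pMk-like, which was 18.3% of that cluster.

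Within the pEr-like cluster, thinned cells with Car1 more often held the other restricted genes than thinned cells without Car1. Tspo2 was present in 37.1% of 369 cells with Car1 and 3.49% of 86 cells without it, Ermap in 18.2% and 2.33%, and Rhd in 10.3% and 1.16%. Aqp1 was present in 62.9% and 27.9%, Blvrb in 66.9% and 38.4%, and Epor in 16.5% and 6.98%, whereas Car2 was present in 91.6% and 89.5%. Over the cells of all pools together, the exact 95% intervals did not overlap for Tspo2, Ermap, Rhd, Aqp1 and Blvrb, and overlapped for Epor and Car2. These intervals leave out the spread between pools. By pool, the shares of Tspo2, Ermap, Rhd, Aqp1 and Blvrb were higher with Car1 in each pool, but the intervals of Ermap and Rhd overlapped in every pool. Those of Aqp1 and Blvrb were apart only in Young_A, and those of Tspo2 only in Young_A and Old_B. Epor was lower with Car1 in Old_B, at 8.51% against 16.7%. Outside the cluster, of 908 thinned cells with Car1, 4.85% held Aqp1, 22.5% held Blvrb and 0.441% held Tspo2, against 4.68%, 23.9% and 0.233% of cells without Car1, and none of the 908 held Ermap. In Young_B, with only 29 such cells, 2 held Aqp1 and 1 held Tspo2, or 6.90% and 3.45%, against 1.39% and 0.0478% of cells without Car1.

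Over the 14 clusters, the profiles of the restricted genes were correlated mainly through the pEr-like cluster. Ermap, Rhd and Tspo2 were at 63.3, 46.0 and 149.6 CPM there, and at most 1.01, 1.96 and 2.58 CPM in any other cluster. The 10 CPM added before the logarithm flattened such low levels, so a high correlation among these genes was fixed in advance. It does not compare their levels across the other clusters. The Pearson correlation of log2(CPM + 10) between members was 0.987 or higher for any pair of Car1, Ermap, Rhd and Tspo2, and 0.971 between Aqp1 and Epor, whereas Car2 reached at most 0.495 with any other member. Of 9888 genes compared, the profile of Car1 was closest to those of Rhd (0.990), Ermap (0.989) and Prss50 (0.989). The closest to Ermap were Prss50 (0.999), Asb17os (0.998) and Pklr (0.998), the closest to Tspo2 were Asb17os (0.997), Prss50 (0.996) and Pklr (0.996), and the closest to Rhd were Col5a1 (0.997), Prss50 (0.996) and Ermap (0.995). Pklr encodes the pyruvate kinase of liver and red cells.

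Epor was closest to Aqp1 (0.971), Abcb4 (0.955) and Gm12999 (0.949), and Aqp1 to Epor (0.971), Gm12999 (0.965) and Samd14 (0.964). Blvrb was closest to Ces2g (0.959), Smim1 (0.940) and Epdr1 (0.928), and Car2 to Cfap97 (0.979), Nudt9 (0.978) and Scoc (0.974). Smim1 encodes a red cell membrane protein that carries a blood group antigen. The 14 points share their libraries, 1 cluster sets most of each correlation, and the values are a description.

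Whether the members changed with age was asked first in the summed counts of whole pools, with edgeR's quasi-likelihood test, platform as a block and p values adjusted by Benjamini-Hochberg over all 13555 genes tested. None of the 8 members, all of which passed the filter on low counts, had an adjusted p under 0.05, against 2.03% of all genes, and 3 had an unadjusted p under 0.05 (Car1, Rhd and Tspo2), against 16% of all genes. DESeq2 called 1 member, Car1, against 4.01% of all genes. The median log2 fold change of the members was −0.34, against 0.012 over all genes.

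Car1 was at 168.5 and 96.6 CPM in Young_A and Young_B as wholes and at 113 and 50.4 CPM in Old_A and Old_B. Each aged pool lay below the young pool of its platform, although the age groups overlapped. The log2 fold change was −0.81 (SE 0.170, adjusted p = 0.101, edgeR), and DESeq2 gave −0.85 with an adjusted p of 0.0203. Tspo2, at 11.9 and 3.96 CPM in Young_A and Young_B and 5.15 and 2.16 CPM in Old_A and Old_B, had a log2 fold change of −1.11 (SE 0.237, adjusted p = 0.105, edgeR). Its age groups overlapped as well. Within platforms, on the scale of log2(CPM + 1), Car1 differed by −0.57 on A and −0.93 on B, and Tspo2 by −1.07 and −0.65. Without a filter on low counts the adjusted p of Tspo2 was 0.0326, and with all barcodes kept it was 0.0484.

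Rhd was at 3.65 and 2.195 CPM in Young_A and Young_B and at 2.17 and 0.571 CPM in Old_A and Old_B, with a log2 fold change of −1.34 (SE 0.420, adjusted p = 0.213, edgeR). The groups did not overlap, but Young_B and Old_A were almost equal. Ermap, at 4.06, 1.89, 3.80 and 0.691 CPM in the same order, had a log2 fold change of −0.75 with a wide error (SE 0.416, adjusted p = 0.494, edgeR). The remaining members had positive values that were also short of the threshold. Epor was at 8.26, 6.10, 9.19 and 9.34 CPM (log2 fold change 0.33), Aqp1 at 35.8, 16.0, 39.0 and 24.6 CPM (0.31), Blvrb at 96.2, 89.2, 105 and 120.1 CPM (0.22) and Car2 at 1398, 1515, 1493 and 1714 CPM (0.08). Aged and young pools did not overlap for Epor, Rhd and Blvrb, 3 of the 8 members, against 31.8% of all genes. With all barcodes kept, the age groups overlapped for each of these 3 genes. The log2 fold changes were then 0.06 for Epor, −1 for Rhd and 0.05 for Blvrb.

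Whole pools cannot tell fewer erythroid-primed cells from less RNA per such cell. The 4 members with negative values were the 4 restricted to the pEr-like cluster, whose share of cells was lower in the aged pools. In the cells outside that cluster their values were negative as well, at −0.52 for Car1, −1.15 for Tspo2, −0.73 for Rhd and −0.24 for Ermap. What lay behind the values in whole pools was not tested. Klf1 and Gata1, both markers of that cluster, had values of the same sign in whole pools. Their log2 fold changes were −0.77 (adjusted p = 0.140, edgeR) and −0.52 (adjusted p = 0.293, edgeR). Gata1 was not confined to the cluster, with 941 UMIs outside it against 590 in it. Most member UMIs in kept cells were of Car2, with 163856 against 11752 of Car1, the next highest, and Car2 had nearly equal levels in both classes. The pEr-like cells supplied 16.0% and 12.2% of all member UMIs in Young_A and Young_B and 10.3% and 4.48% in Old_A and Old_B. The mean difference was −6.72 percentage points, with an exact permutation p of 0.333, two-sided, the smallest that 2 pools against 2 allow.

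Within the pEr-like cells, no member was called by edgeR (adjusted p = 0.999 for each), none had an unadjusted p under 0.05, against 3.2% of all genes, and DESeq2 called none of the members or of the other genes. Only 0.0464% of the 6469 genes tested passed there, so that this comparison of 59 to 220 cells a pool detected little. The log2 fold changes were 0.29 for Ermap (SE 0.300), 0.24 for Aqp1 (SE 0.277), 0.21 for Car1 (SE 0.300), −0.07 for Car2 (SE 0.284) and −0.08 for both Blvrb (SE 0.275) and Tspo2 (SE 0.287). Epor had −0.25 (SE 0.323) and Rhd −0.46 (SE 0.340). Aged and young pools did not overlap for Rhd alone, 1 of 8 members against 23.4% of all genes. Klf1 and Gata1 were at 0.04 and 0.19 in the same cells.

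**Figure D4:**
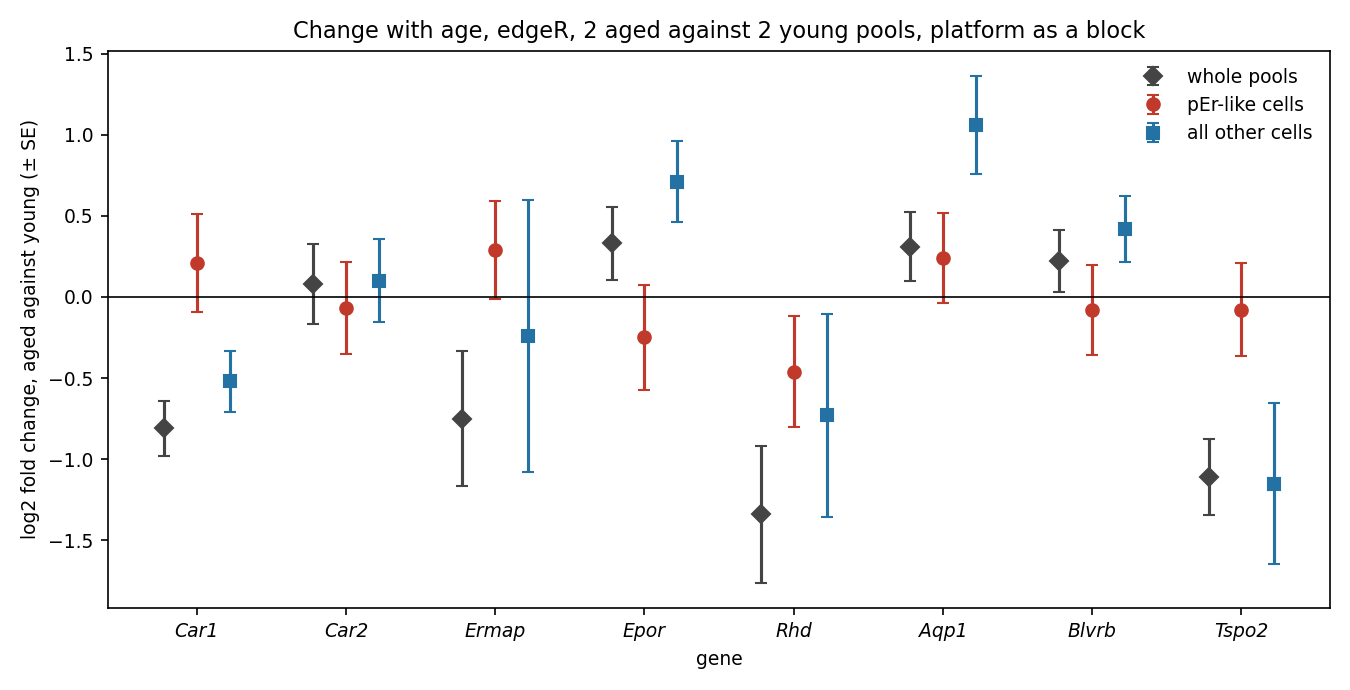
Log2 fold change of each member with age (edgeR, 2 aged against 2 young pools, platform as a block) in whole pools, in pEr-like cells and in all other cells, with standard errors. Car1 and Tspo2 lie at −0.81 and −1.11 in whole pools but at 0.21 and −0.08 in pEr-like cells, and Aqp1 lies at 1.06 in the other cells against 0.24 in pEr-like cells.

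In the cells outside the pEr-like cluster, edgeR called 0 of 8 members, against 1.99% of 13556 genes, while 3 had an unadjusted p under 0.05 (Aqp1, Epor and Car1), against 16.1% of all genes. DESeq2 called none, against 3.99% of all genes. Aqp1 had a log2 fold change of 1.06 (SE 0.301, adjusted p = 0.182), Epor of 0.71 (SE 0.248, adjusted p = 0.268) and Blvrb of 0.42 (SE 0.205, adjusted p = 0.418). For these 3 genes both aged pools were above both young pools, which held for 31.7% of all genes in either direction. Within platforms, on the scale of log2(CPM + 1), Aqp1 was higher in aged cells by 0.64 on A and 1.46 on B, Epor by 0.43 and 0.89, and Blvrb by 0.26 and 0.67. The fold changes of Car1 (−0.52), Tspo2 (−1.15), Rhd (−0.73) and Ermap (−0.24) started from levels that were higher in both A than in both B pools, and Car2 was at 0.10.

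After thinning, 94.4% and 93.9% of the other cells in Young_A and Young_B and 96.0% and 97.1% in Old_A and Old_B held a UMI of at least 1 member, most often Car2. The difference of 2.41 percentage points had an exact permutation p of 0.333. Without thinning the shares were 98.4%, 97.6%, 98.5% and 99.2%, and the difference was 0.898 points.

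Whether the change with age differed between pEr-like and other cells was tested in a fit with pool as a block and a class by age term. This term passed for 3 of 8 members, against 1.76% of 12634 genes. It was 0.75 for Car1 (SE 0.157, adjusted p = 0.000447, edgeR) and 1.28 for Tspo2 (SE 0.379, adjusted p = 0.0443, edgeR), where positive values mean a higher change with age in pEr-like cells, and −0.81 for Aqp1 (SE 0.190, adjusted p = 0.00307, edgeR). Epor (−0.95, adjusted p = 0.0897, edgeR) and Blvrb (−0.52, adjusted p = 0.116, edgeR) were short of the threshold, as were Ermap (1.07), Rhd (0.37) and Car2 (−0.19). With 2 pools an age, the SE and p of this term say little about the spread between pools. On the scale of log2(CPM + 1), Car1 changed by −0.08 on A and 0.67 on B in pEr-like cells. Outside, it changed by −0.26 and −0.56.

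The Car1 and Tspo2 terms set pEr-like cells against a level outside that ran with platform. Without Young_A the Car1 term turned to −0.76 (adjusted p = 0.0247), and without Old_B it was −0.72 (adjusted p = 0.229). It was 1.87 without Young_B and 3.10 without Old_A, and it lost its call with DESeq2 (0.72, adjusted p = 0.955) and without the replicate block (0.69, adjusted p = 1). With a class by platform term added, Car1 was at 0.53 (adjusted p = 0.0118) and Tspo2 at 0.71 (adjusted p = 0.742). Tspo2 lost its call in 8 of 10 alternatives. Aqp1 stayed negative in all 10, from −1.03 to −0.49, and lost its call in 4 of them, among them without Young_B (−0.69, adjusted p = 0.445) and with the class set by UMIs of both Klf1 and Gata1 (−0.49, adjusted p = 0.414).

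**Figure D5:**
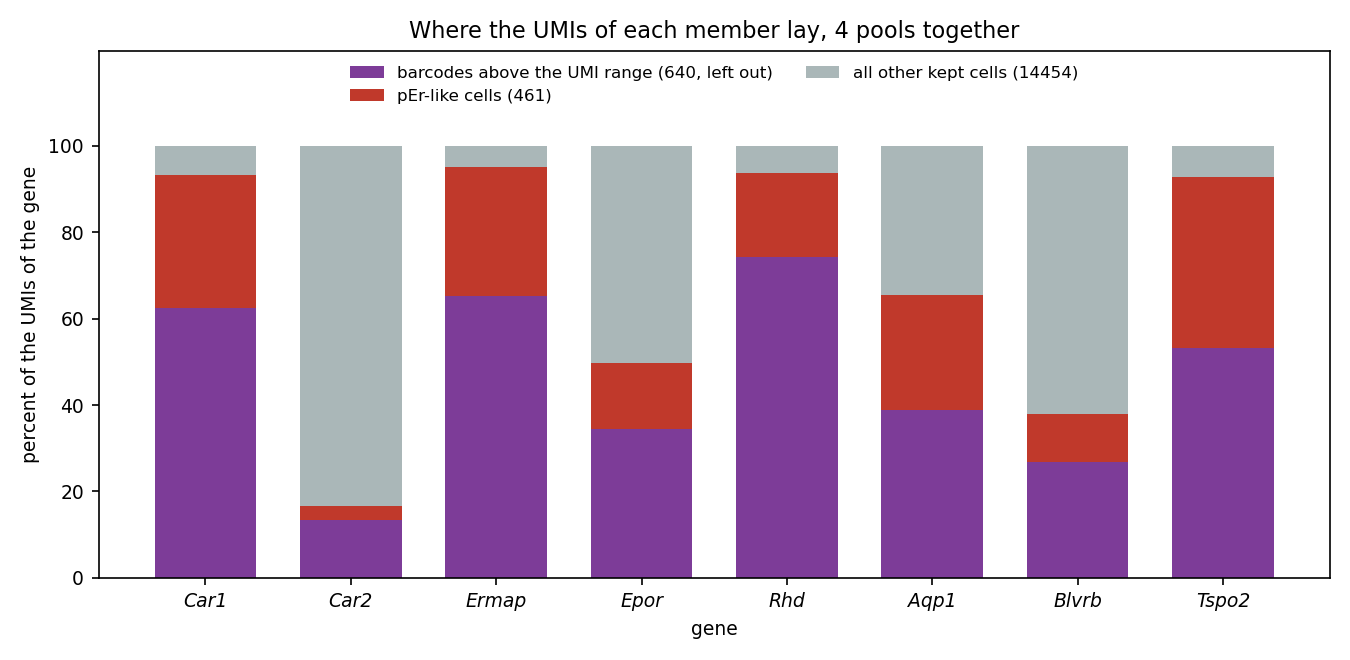
Share of the UMIs of each member (percent, all pools together) that lay in barcodes dropped for a high UMI count, in pEr-like cells and in all other cells. Barcodes dropped for a high count held 62.4% of the Car1 UMIs and 74.3% of the Rhd UMIs, against 13.5% of the Car2 UMIs.

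The filter on UMI counts removed most UMIs of the restricted genes. The 640 barcodes above the range were 4.11% of all barcodes and held 12.4% of all UMIs, with a median of 21889 UMIs each. They held 62.4% of the 31265 Car1 UMIs in the files, 74.3% of Rhd, 65.2% of Ermap, 53.2% of Tspo2, 38.8% of Aqp1, 34.5% of Epor and 26.7% of Blvrb, but 13.5% of Car2. The Car1 share was 62.4% and 62.7% in Young_A and Young_B and 63.7% and 60.2% in Old_A and Old_B, so that it varied little between pools. The Aqp1 share was 44.9%, 46.5%, 40.1% and 18.9% in the same order. Epor had 44.9%, 36.3%, 36.75% and 17.0%, and Blvrb 35.0%, 28.3%, 27.1% and 16.4%. These shares were thus lowest in Old_B, whereas those of Rhd (78.65%) and Ermap (67.1%) were highest there.

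The level of the genes, and not only the size of the barcodes, was higher there. Car1 was at 1286 CPM in the dropped barcodes and at 109.9 CPM in the kept cells, 11.7-fold higher, Rhd was 20.3-fold, Ermap 13.2-fold and Tspo2 8-fold higher, and Aqp1, Epor and Blvrb were 4.47-fold, 3.72-fold and 2.57-fold higher. Car2 was 1.10-fold higher. UMIs of both Klf1 and Gata1 were present in 33.9% and 30.1% of the dropped barcodes of Young_A and Young_B and in 26.6% and 10.2% of those of Old_A and Old_B, against 2.19% of all kept cells. A high count makes any UMI easier to detect, and whether these barcodes held 1 cell or several was not tested. With all barcodes kept, Car1 was at 387 and 227 CPM in Young_A and Young_B and at 273 and 113 CPM in Old_A and Old_B, and Tspo2 had a log2 fold change of −1.14 (adjusted p = 0.0484, edgeR).

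Other genes of the erythroid program were followed in 8 lists with 90 genes in the files, of which 74 passed the filter in whole pools. Of these 74, edgeR called 1, against 2.03% of all genes, and it was 1 of 12 of erythropoietin signalling. This was Socs3, which encodes a feedback inhibitor of Jak kinases and was at 5.13 and 3.84 CPM in Young_A and Young_B and at 58.3 and 15.8 CPM in Old_A and Old_B. Both aged pools lay above both young pools, with a log2 fold change of 2.76 (SE 0.362, adjusted p = 0.0369, edgeR). No gene of the lists was called without Old_A or without Old_B, and 5 and 4 were called without Young_A and without Young_B, where 287 and 160 of all genes were. None of the 11 genes of heme synthesis (median log2 fold change −0.07), 13 of the red cell membrane (−0.28), 4 globins (−0.14), 14 erythroid transcription factors (0.18), 3 of heme breakdown (−0.12), 6 of iron handling (−0.07) or 11 relatives of the members in the carbonic anhydrase, aquaporin and translocator families (0.20) was called. Of the 74 genes, 12 had an unadjusted p under 0.05, against 16% of all genes, and DESeq2 called 2, against 4.01%.

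The gene Hbb-bs, for an adult beta globin, was at 99.3 and 1306 CPM in pEr-like cells of Young_A and Young_B and at 551 and 4.49 CPM in those of Old_A and Old_B, and at 7.08, 372, 12.4 and 161 CPM in the other cells. The levels in pEr-like cells rested on few cells, with Hbb-bs UMIs in 6.36%, 9.46%, 5.56% and 3.39% of them in the same order. In the other cells the shares were 3.10%, 10.1%, 5.31% and 6.28%. Outside the pEr-like cells, 4 of the 37 cells of cluster 13 held 10493 of the 11614 Hbb-bs UMIs. Without that cluster the levels were 7.05 and 18.35 CPM in Young_A and Young_B and 12.45 and 10.45 CPM in Old_A and Old_B, with no order by platform or age. The near-identical copies of the globin genes share reads, so values of single globins are uncertain.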

How the data were processed

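The authors captured cells with 10x Chromium 3′ v2 kits and counted UMIs with Cell Ranger 2.2.0 on GRCm38 (mm10). For each pool, the deposited matrix gives whole UMI counts that were not normalized, and the sources used here do not name the annotation release. UMIs are counted at the 3′ end of transcripts, so levels do not scale with transcript length.

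The members and all lists were chosen with earlier results of these data known. Kept cells were integrated and clustered with Seurat 5.3.0 as in the study, without the 8 members. Settings were 2000 variable genes, 15 of 40 principal components, 20 neighbours, resolution 0.5 and the cell cycle regressed by phase scores from scran 1.30.0. Clusters were named from markers: at least 3 of a list detected in at least 10% of cells and raised at least 1 log2 unit. At least 1 marker of the list had to be among the 10 leading genes, and no other list could have more there. Doublets were removed only in an alternative.

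Counts were summed per pool and class and tested with edgeR 4.0.16 (quasi-likelihood, TMM, filterByExpr, platform as a block, Benjamini-Hochberg, threshold 0.05) in R 4.3.3. DESeq2 1.42.0 was an alternative. A class needed 10 cells in every pool. The edgeR fits, and DESeq2 in whole pools, were run on simulated counts with known changes. These counts held no platform effect and no difference between classes besides the changes set. They therefore do not show how the class by age term behaves in these data. Deviations of same-letter pools from their age means had a correlation of 0.576 over 13555 genes. With 2 pools an age, this value is the same for both letters. The letter marks a facility and a batch that both ages share, which is why pools were paired by it. The parts of facility and batch in the correlation cannot be told apart.

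Shares of cells have exact Clopper-Pearson 95% intervals and levels exact Poisson intervals, which cover counting error only. Thinning to 3000 UMIs left out 0 and 50 cells of Young_A and Young_B and 176 and 4 of Old_A and Old_B. A count of 0 was given an upper limit of 3 counts. The named genes were the 8 members, the 4 called pathway genes with the largest change (1 passed), Klf1 and Gata1, and the 3 genes closest to each member over clusters among genes above 10 CPM in a cluster. Beside these, Hbb-bs was chosen after its values were seen. The alternatives were DESeq2, RLE scaling, no filter, no block, leaving out each pool, all barcodes, doublets removed, a Klf1 and Gata1 gate, resolution 0.8 and other thinning. The gate over all barcodes was chosen after seeing the data.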

Additional observations from a re-analysis of the deposited data

Results flagged for a closer look

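The change with age of Car1 differed between pEr-like and other cells by 0.75 on the log2 scale, and that of Tspo2 by 1.28. For Aqp1 the difference was −0.81. These 3 results stand here because a test of the difference itself passed, although its SE and p say little about the spread between pools. The levels of Car1 and Tspo2 outside the pEr-like cells were higher in both A than in both B pools, and the part of platform in the 2 differences was not tested beyond the added class by platform term.

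Epor had a log2 fold change of −0.25 in pEr-like cells and 0.71 in the other cells, with the same opposite signs on both platforms. The test of the difference gave −0.95 with an adjusted p of 0.0897 (edgeR), short of the threshold.

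Barcodes dropped above the UMI range held 53516 UMIs of the 8 members, or 3526 CPM against 1796 CPM in the kept cells. Of these UMIs, 25470 were of Car2 and 19512 of Car1. The 11 barcodes dropped below the range, all of Old_B, held 80 member UMIs, or 2496 CPM against 1921 CPM in the kept cells of that pool. Both stand here because they lie outside the cells that were compared.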

How the results depend on the processing

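No member was called within pEr-like cells or outside them under any alternative run, which were 11 for each. In whole pools the count of members called was 0 with RLE scaling, without the replicate block, with doublets removed and without any 1 pool (0 to 0), and 1 with DESeq2, without the low-count filter and with all barcodes. Pathway genes called were 2 with DESeq2, 3 without the filter, 0 without the replicate block and 0 to 5 with 1 pool left out. Genes called were 543 with DESeq2, 774 without the filter, 0 without the replicate block and 0 to 287 with 1 pool left out (Young_A left out gave 287, Young_B 160, Old_A 4 and Old_B 0), against 275. Members with a class by age difference were 1 with DESeq2, 1 with the Klf1 and Gata1 gate, 1 with that gate over all barcodes, 0 without the replicate block and 1 to 5 with 1 pool left out. The share of other cells with a member UMI differed by 0.898 points without thinning. The share of member UMIs from pEr-like cells kept its direction under its 3 alternatives. The cause of these shifts was not tested. A fit that left out 1 pool took the spread from the age that still had 2. For the change with age it had no platform block, so that differences between platforms entered its fold changes.

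Turned directions were Aqp1 in whole pools with all barcodes (−0.02), Car1 in pEr-like cells by the gate (−0.04), Car2 there by the gate over all barcodes (0.02) and Ermap outside with DESeq2 (0.09). With 1 pool left out, young and aged pools were no longer paired within platforms, and the ranges mix age with platform. In whole pools without Young_B, Aqp1 was at −0.17, although the A pools alone differed by 0.12 on the scale of log2(CPM + 1). Ranges that crossed 0 in whole pools were −0.19 to 0.34 for Car2, −1.97 to 0.14 for Ermap, −0.17 to 0.78 for Aqp1 and −0.05 to 0.49 for Blvrb. In pEr-like cells they were −0.22 to 0.60 for Car1, −0.38 to 0.23 for Car2, −0.12 to 0.54 for Ermap, −0.05 to 0.51 for Aqp1, −0.33 to 0.13 for Blvrb and −0.45 to 0.41 for Tspo2. Outside they were −2.58 to 1.41 for Car1, −0.18 to 0.35 for Car2, −3.46 to 0.32 for Ermap, −2.63 to 0.44 for Rhd and −2.65 to 0.30 for Tspo2. For the class by age term they were −0.76 to 3.10 for Car1, −4.28 to 3.42 for Ermap and −1 to 2.35 for Rhd.

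Depth limits Ermap, Rhd and Tspo2, which had at most 106 UMIs each outside the pEr-like cells. The replicate block changed no call of a single member in whole pools or in either class of cells, and without it no class by age term passed.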
